A study of Homo sapiens with 4 samples.

Results

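The genes described here are 10 interleukins and chemokines that tumour cells can secrete: IL1A, IL1B and IL18 of the IL-1 family, IL6, IL11 and LIF of the IL-6 family, and the chemokines CXCL1, CXCL2, CXCL8 and CCL2. They were chosen by gene symbol from the array annotation, with earlier results of these data known. All 10 were found among the 18417 genes measured, each with 1 probe set. RNA came from 4 cultures, 1 array for each: HOS without OGE, HOS with 600 μg/mL OGE, U2-OS without OGE, and U2-OS with 600 μg/mL OGE, all exposed for 24 h. HOS and U2-OS are established human osteosarcoma cell lines grown in serum-containing medium, and the labels do not spell out OGE. No array was replicated within a line and state, and nothing says that the cultures were set up as separate experiments. Any p-value below therefore rests on these 4 arrays alone, and their number limits the precision. In the main fit, the lines served as repeats of the OGE difference, and the treatment states as repeats of the line difference. Such a p-value measures the disagreement between these repeats, moderated by the spread over all genes, and not the spread between repeat cultures.

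Values are log2 signals after RMA, the authors' background correction, normalization between arrays and summary of probes. The array medians lay between 3.58 and 3.62, and the arrays of HOS and of U2-OS correlated at 0.98 and 0.968 between control and OGE over all probe sets. The files hold no call of whether a gene was detected, so the median of each array over its 33297 probe sets served as the floor. With single arrays, a gene counted as called by size when its difference was at least 1 on the log2 scale, which is 2-fold, and the larger value reached that floor. Of 8 measured osteoblast lineage markers, 5 lay at or above the median on all 4 arrays, among them COL1A1 with 10.01, 9.07, 9.46 and 7.71 in HOS control, HOS with OGE, U2-OS control and U2-OS with OGE. SPP1 and IBSP lay below it on every array. Of 9 immune cell markers, 7 lay below the median on all 4 arrays, and the pan-leukocyte gene PTPRC lay between 1.28 and 1.48. NKG7, at 4.23 to 4.45, and CD68 lay above it on all 4.

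Interleukins and chemokines are secreted proteins that carry signals between cells. IL-1 alpha, IL-1 beta and IL-18 are made as precursors, and the last pair is cut to the active form by caspase-1 in inflammasomes. IL-6, IL-11 and LIF each bind a receptor chain of their own and signal through the shared chain gp130 (IL6ST) to JAK kinases and STAT3. In bone, members of this family act on the osteoblasts and osteoclasts that form and resorb the tissue. CXCL1, CXCL2 and CXCL8 attract neutrophils through CXCR1 and CXCR2, and CCL2 attracts monocytes through CCR2. Many of these genes are known targets of NF-kappaB and AP-1.

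Promoters from RefSeq (GRCh38.p14) were matched by symbol for 7 of the 10 genes, each 300 bases long with 250 before the start site and 50 after it. IL18, LIF and CCL2 had no entry. Printed here are those of the 3 CXC chemokines, because they carry the same kappaB-like letters while only CXCL1 lay above the median on all arrays, and that of IL11, because its difference with OGE was the largest of the 10 in U2-OS. They are given 5′ to 3′ on the gene's strand, and capitals mark every motif match. The motifs searched, on both strands, were GGANNTTCC (kappaB-like), TGANTCA (AP-1), TTGCNNAA (C/EBP), TGATGNAA (the joint ATF4 and C/EBP element) and, for the core promoter box bound by TBP, TATAAA. The intervals are chr4:73869143-73869442 (plus strand) for CXCL1, chr4:74099146-74099445 (minus) for CXCL2, chr4:73740319-73740618 (plus) for CXCL8 and chr19:55370414-55370713 (minus) for IL11.
CXCL1: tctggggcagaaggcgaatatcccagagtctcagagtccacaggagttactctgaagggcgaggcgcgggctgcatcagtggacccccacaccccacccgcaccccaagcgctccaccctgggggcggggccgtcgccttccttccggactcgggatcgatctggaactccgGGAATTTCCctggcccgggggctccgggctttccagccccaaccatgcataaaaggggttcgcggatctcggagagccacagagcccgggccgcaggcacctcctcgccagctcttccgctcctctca
CXCL2: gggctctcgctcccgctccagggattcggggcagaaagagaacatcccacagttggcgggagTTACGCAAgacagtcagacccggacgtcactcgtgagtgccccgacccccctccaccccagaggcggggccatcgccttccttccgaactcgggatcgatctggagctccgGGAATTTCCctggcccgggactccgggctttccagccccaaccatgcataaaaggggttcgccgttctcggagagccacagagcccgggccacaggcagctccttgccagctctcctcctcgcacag
CXCL8: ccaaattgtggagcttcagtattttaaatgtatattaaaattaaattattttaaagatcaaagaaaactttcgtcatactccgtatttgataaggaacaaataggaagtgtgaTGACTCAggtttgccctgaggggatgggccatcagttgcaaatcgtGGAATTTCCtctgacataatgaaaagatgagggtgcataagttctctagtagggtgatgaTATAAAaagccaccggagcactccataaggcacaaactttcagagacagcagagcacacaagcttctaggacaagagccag
IL11: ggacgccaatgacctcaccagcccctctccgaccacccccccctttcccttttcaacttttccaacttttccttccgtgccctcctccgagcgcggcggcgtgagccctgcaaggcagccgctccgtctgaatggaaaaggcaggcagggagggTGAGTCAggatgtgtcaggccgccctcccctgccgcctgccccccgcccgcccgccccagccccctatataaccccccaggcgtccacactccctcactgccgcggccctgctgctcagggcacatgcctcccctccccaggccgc

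The letters GGAATTTCC stood in all 3 chemokine promoters, from position -78 to -70 before the start site in CXCL1, from -77 to -69 in CXCL2 and from -91 to -83 in CXCL8. The CXCL1 and CXCL2 sequences were identical at 240 of 334 aligned columns, 71.9%, against 45.2% for CXCL1 and CXCL8. IL6 carried a further kappaB-like match, GGATTTTCC, from -72 to -64, so that 4 of the 7 promoters held this motif, against 4.56% of the 35116 promoters in the table. An AP-1 match was found in 3 of the 7, against 7.71% of all promoters. It read TGACTCA from -137 to -131 in CXCL8 and TGAGTCA from -96 to -90 in IL11, and IL1A had a match on either side of its start. A C/EBP match was present in IL6, IL1B and CXCL2, with 10.5% of all promoters holding one, and the ATF4 and C/EBP element was found in none of the 7, against 3.62%. TATAAA was present in CXCL8, from -31 to -26, and in IL1A, from -239 to -234, against 11.5% of all promoters. IL1A had 2 start sites listed, and its matches are those of the first. In the printed sequences no match overlapped another. A match describes letters and says nothing of binding.

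IL18, LIF and CCL2 had higher levels in U2-OS than in HOS in both treatment states. By size these were 3 of the 10 genes called without OGE, against 8.76% of all genes (5.2% higher and 3.56% lower in U2-OS). The same 3 were called with OGE, against 6.94% (3.05% higher and 3.89% lower). In both states together 3.71% of all genes were called, 1.8% higher and 1.91% lower, and none of the 10 was lower. IL18, CCL2 and LIF were below the array median on both HOS arrays and above it on both U2-OS arrays. IL18 was already known from an earlier look at these arrays to differ between the lines, so its difference is not independent evidence. The 10 genes as a set were also chosen with earlier results known. Their counts by size and by limma, set against all genes, are therefore descriptive only.

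IL18, an IL-1 family cytokine that drives interferon-gamma production, had a signal of 2.02 in HOS control, 2.0 in HOS with OGE, 6.93 in U2-OS control and 6.84 in U2-OS with OGE. The values with and without OGE lay within 0.09 of each other in either line, while the lines were far apart. U2-OS minus HOS was 4.91 without OGE and 4.84 with it. Since the HOS values lay under the floor, a fold is given against the median of the HOS array in place of the low value, here and for the next genes: the U2-OS signal was at least 10.1-fold higher without OGE and at least 9.32-fold higher with it. In limma, fitted across all genes with line and OGE as terms, the difference was 4.875 ± 0.17 (SE), adjusted p = 0.0117. In RNA from whole cultures, fewer expressing cells and less RNA per cell cannot be told apart.

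LIF, a gp130 cytokine named for its action on leukaemia cells, was at 3.27 in HOS control, 3.54 in HOS with OGE, 5.63 in U2-OS control and 5.5 in U2-OS with OGE. Its U2-OS values did not overlap those of HOS, and the share of all genes without such overlap was not counted. The difference between the lines was 2.36 without OGE, at least 4.08-fold against the HOS median, and 1.96 with it, at least 3.68-fold. In limma it was 2.16 ± 0.19 (SE), adjusted p = 0.0382.

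CCL2, the monocyte attractant, was at 3.11 in HOS control, 2.60 in HOS with OGE, 4.69 in U2-OS control and 4.81 in U2-OS with OGE. Again no HOS value reached those of U2-OS, with the same limit as for LIF. The lines differed by 1.58 without OGE, at least 2.13-fold against the HOS median, and by 2.21 with it, at least 2.28-fold. In limma the difference was 1.895 ± 0.22 (SE), adjusted p = 0.0434, and without OGE as a term the adjusted p was 0.053. These 3 genes were the ones among the 10 that passed limma, all higher in U2-OS, against 0.885% of all genes higher in U2-OS and 1.04% lower by that test. At an unadjusted p under 0.05 there were 4 of the 10, with CXCL8, against 20.7% of all genes. Markers that moved with the lines included the collagen gene COL1A2, lower in U2-OS with differences of -4.32 without OGE and -3.15 with it (limma adjusted p = 0.0356). The keratin gene KRT8 was called lower by size, with -1.22 and -1.37 (limma adjusted p = 0.0503), and so were ALPL, with -1.55, and EPCAM, with -1.15, without OGE. With OGE, COL1A1 was called lower, with -1.36, and CLDN4 higher, with 1.51, where 3.05% of all genes were called higher. In each state 2 of the 8 osteoblast markers were called lower, and 2 and then 1 of the 6 epithelial markers. Of all genes, 3.56% and 3.89% were called lower without and with OGE. No immune or endothelial marker was called between the lines. Among the osteoblast markers 5 and 6 differences were negative. SPARC differed by 0.65 and -0.02, SPP1 by 0.34 and 1.09 and RUNX2 by 0.06 and 0.07. The summed log2 signal in HOS control, HOS with OGE, U2-OS control and U2-OS with OGE was 45.51, 42.19, 39.32 and 36.95 for the 8 osteoblast markers and 33.13, 32.36, 30.28 and 30.86 for the 6 epithelial markers. For the 6 endothelial markers it was 17.60, 17.15, 16.23 and 16.71, with PECAM1, CDH5, VWF, KDR and TEK below the median on every array. CLDN5 lay above it on every array, at 4.55 to 4.88. So did the epithelial markers KRT8 and KRT18, the latter at 9.05 to 10.09. The part of these markers in the differences of IL18, LIF and CCL2 was not tested.

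**Figure D1:**
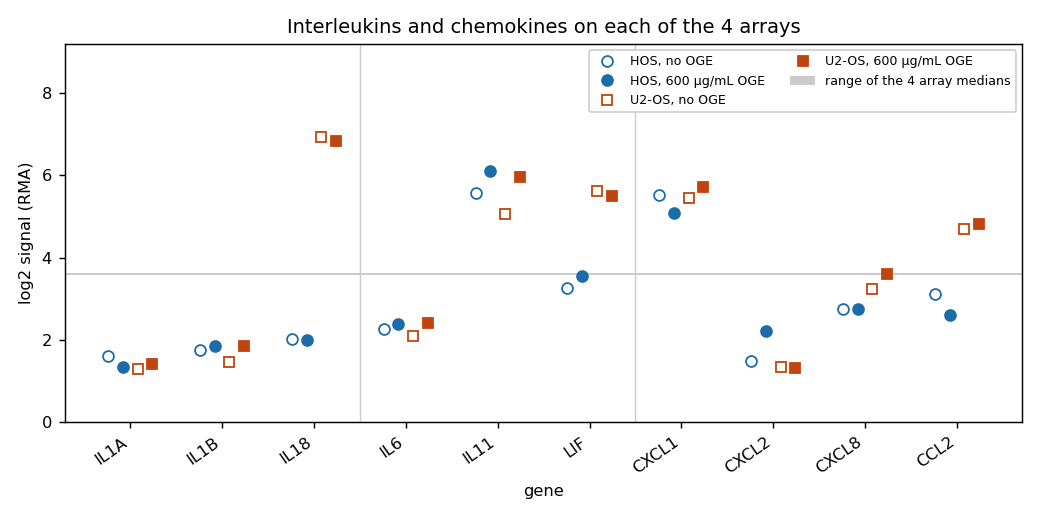
Log2 signal of the 10 genes on each of the 4 arrays, with open symbols for no OGE, filled symbols for OGE, circles for HOS and squares for U2-OS, and a grey band over the range of the array medians. IL18, LIF and CCL2 lie above the band in U2-OS and below it in HOS, while IL11 and CXCL1 lie above it on every array.

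CXCL8, the neutrophil attractant also called interleukin 8, was at 2.75 in both HOS arrays, 3.24 in U2-OS control and 3.61 in U2-OS with OGE. Only the last of these reached its array's median, of 3.60, so that the gene sat at the edge of the floor. U2-OS minus HOS was 0.49 without OGE and 0.86 with it, neither a call by size. In limma the difference was 0.675 ± 0.19 (SE), with an unadjusted p of 0.0190 and an adjusted p of 0.15, which did not pass.

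The other 6 genes were called in neither state between the lines. IL11 differed by -0.52 without OGE and -0.13 with it, and CXCL1 by -0.06 and 0.62. CXCL2 differed by -0.16 and -0.88, with all its values under the floor. IL6, IL1A and IL1B had differences between -0.32 and 0.06. Adjusted p in limma for these 6 genes lay between 0.323 for CXCL2 and 0.858 for IL6. Over all 10 genes the median difference was -0.11 without OGE and 0.34 with it, against -0.03 and -0.01 over all genes.

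**Figure D2:**
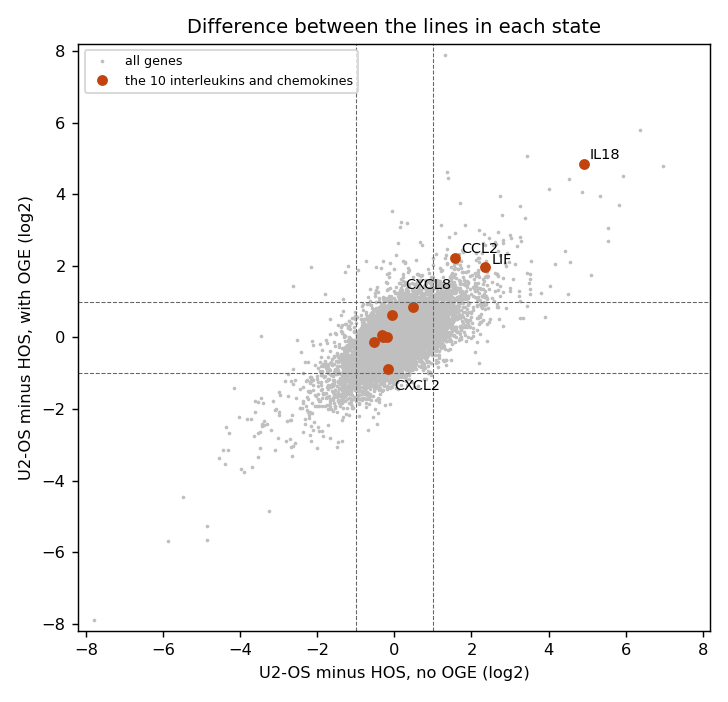
U2-OS minus HOS on the log2 scale without OGE (horizontal) and with OGE (vertical), for all 18417 genes in grey and the 10 interleukins and chemokines in orange-red, with dashed lines at the 2-fold size threshold. IL18 lies at 4.91 and 4.84, LIF and CCL2 lie beyond the threshold in both states, and CXCL8 and CXCL2 lie within it.

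With OGE, none of the 10 genes was called by size in HOS, against 2.39% of all genes, and none in U2-OS, against 6.76%. In both lines at once 1.09% of all genes were called, 0.451% higher and 0.641% lower. The differences ran from -0.51 for CCL2 to 0.71 for CXCL2 in HOS, and from -0.13 for LIF to 0.92 for IL11 in U2-OS. In HOS 2 of the genes reached the floor on at least 1 array and so could have been called, and in U2-OS 6 did. Over the 10 genes the median was 0.045 in HOS and 0.185 in U2-OS, against 0.02 and 0.03 over all genes. The signs were the same in both lines for 4 genes and opposite for 5, and CXCL8 had a difference of 0 in HOS. Across the lines limma called 0 of the 10 genes and 0% of all genes for OGE, with 1 of the 10 and 14.2% of all genes at an unadjusted p under 0.05.

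IL11, a gp130 cytokine that acts on bone, platelets and stroma, was the gene with that unadjusted p. It was at 5.57 in HOS control, 6.10 in HOS with OGE, 5.05 in U2-OS control and 5.97 in U2-OS with OGE. Both OGE arrays lay above both control arrays, and the share of all genes that separate in this way was not counted. The difference was 0.53 in HOS, 1.44-fold, where 1246 genes had a larger one, and 0.92 in U2-OS, 1.89-fold, where 451 genes did. In limma the mean difference was 0.725 ± 0.19 (SE), unadjusted p = 0.0153 and adjusted p = 0.259, so it did not pass. At a threshold of 1.5-fold IL11 would be called in U2-OS and in HOS it would not.

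CXCL1, a neutrophil attractant first described as a melanoma growth factor, was at 5.52 in HOS control, 5.09 in HOS with OGE, 5.46 in U2-OS control and 5.71 in U2-OS with OGE. All 4 values lay above the array medians and within 0.62 of each other. With OGE the difference was -0.43 in HOS and 0.25 in U2-OS, with opposite signs and neither called. In limma the mean was -0.09 ± 0.23 (SE), adjusted p = 0.898.

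For IL18 the difference with OGE was -0.02 in HOS and -0.09 in U2-OS, and for LIF it was 0.27 and -0.13. CCL2 differed by -0.51 in HOS, below the floor, and by 0.12 in U2-OS. In limma the mean differences of these 3 genes lay between -0.195 and 0.07, with adjusted p from 0.744 to 0.914.

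IL6, the founding gp130 cytokine, was at 2.27 in HOS control, 2.38 in HOS with OGE, 2.08 in U2-OS control and 2.40 in U2-OS with OGE. IL1A lay between 1.29 and 1.61 and IL1B between 1.45 and 1.84 over the 4 arrays. These are the alarm cytokines of the IL-1 family, and with IL6 and CXCL2 they made up the 4 genes below the median on every array. The differences of IL6, IL1A and IL1B with OGE ran from -0.27 to 0.39. Among the 6388 genes below the median on all arrays, the differences ran, from the 2.5th to the 97.5th percentile, from -0.53 to 0.56 in HOS and from -0.68 to 0.69 in U2-OS.

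CXCL2, a neutrophil attractant next of kin to CXCL1, was at 1.49 in HOS control, 2.20 in HOS with OGE, 1.33 in U2-OS control and 1.32 in U2-OS with OGE. Only HOS with OGE stood above the others. The difference of 0.71 in HOS was between values that both lay under the floor, so it was not called, and in limma the mean was 0.35 ± 0.24 (SE), adjusted p = 0.565. CXCL8 differed by 0 in HOS and by 0.37 in U2-OS, with a limma adjusted p of 0.712.

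**Figure D3:**
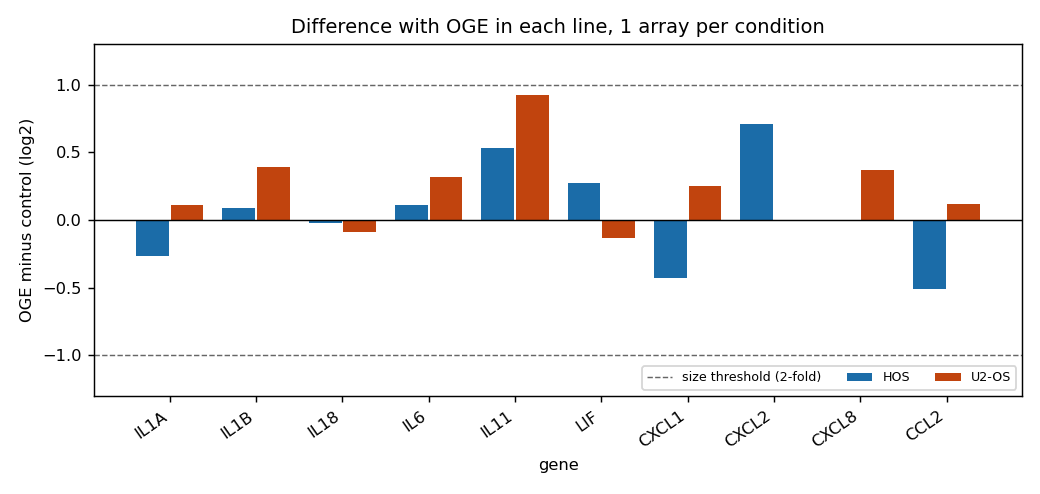
OGE minus control on the log2 scale for the 10 genes in HOS (blue) and U2-OS (orange-red), 1 array per condition, with dashed lines at the 2-fold size threshold. No bar reaches the threshold, and the tallest are IL11 in U2-OS at 0.92 and CXCL2 in HOS at 0.71.

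How far the response differed between the lines could not be tested, since a model with that term leaves no residual degree of freedom. As values, the U2-OS response minus the HOS response ran from -0.72 for CXCL2 to 0.68 for CXCL1, and was 0.63 for CCL2, 0.39 for IL11 and -0.07 for IL18.

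CXCL8, CXCL1 and CXCL2 lie in a cluster on chromosome 4, where RefSeq places 9 protein-coding genes in a row from CXCL8 to CXCL2. Of these, CXCL1 was the 1 gene at or above the median on all 4 arrays, and 5 lay below it on all of them. CXCL3, the neighbour of CXCL2, had values from 2.83 to 3.13. CXCL5 and PF4V1 lay close to the median, at 3.54 to 3.82 and at 3.53 to 3.78. CXCL1, CXCL2 and CXCL3 have closely alike transcripts, and whether a probe set takes up signal from the others was not tested.

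**Figure D4:**
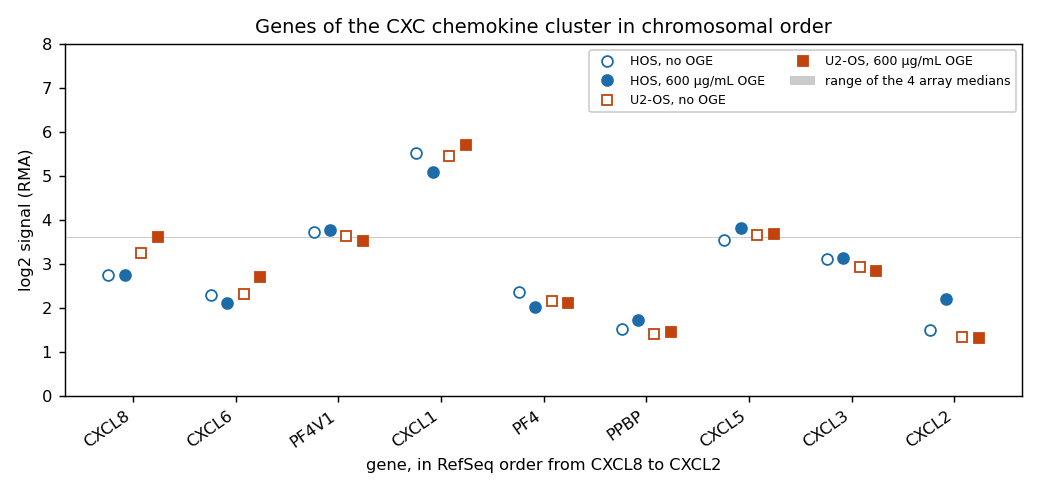
Log2 signal of the 9 genes from CXCL8 to CXCL2 in their order on chromosome 4, on each of the 4 arrays, with a grey band over the range of the array medians. CXCL1 stands above the band at 5.09 to 5.71, and CXCL8, CXCL5 and PF4V1 are near it on some arrays.

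The other genes of these pathways were taken from 10 lists with 141 genes, of which 129 were measured. With OGE, 1 of the 129 was called higher and 0 lower in HOS, against 1.05% and 1.34% of all genes, and 2 were called higher and 1 lower in U2-OS, against 1.84% and 4.92%. Of the 129, 79 lay below the median on all arrays. Their median difference was 0.04 in HOS and 0.07 in U2-OS. By size between the lines, 2 of the 129 were called higher in U2-OS and 0 lower without OGE, against 5.2% and 3.56% of all genes. With OGE, 5 were called higher and 2 lower, against 3.05% and 3.89%. No gene of these lists passed limma for OGE or between the lines, against 0% and 1.92% of all genes. At an unadjusted p under 0.05 there were 9 of the 129 for OGE, against 14.2% of all genes, and 19 between the lines, against 20.7%. Between the lines, limma called 7 of the 129 after quantile normalization, 7 after cyclic loess, 4 with trend and robust moderation and 1 among genes at or above the median mean level. Of the genes named in the next paragraphs, CXCR4, IL6R, CXCL14, IL24, CD68, COL1A1, COL1A2 and SPARC follow a fixed rule. So do the genes most like IL18 and IL11, and the others were picked after their values had been seen.

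Of the partners of the IL-1 family, all 8 measured other ligands and antagonists lay below the median on every array. The IL-18 receptor chains IL18R1 and IL18RAP lay between 1.17 and 1.53, and IL18BP, the secreted IL-18 trap, between 2.76 and 3.0. CASP1, the protease that cuts the IL-18 and IL-1 beta precursors, was at 1.47 in HOS control, 1.33 in HOS with OGE, 1.45 in U2-OS control and 1.48 in U2-OS with OGE. So the line with high IL18 signal had CASP1 and IL-18 receptor signals below the median, as HOS did. CASP4, an inflammatory caspase, was at 3.48, 3.66, 4.26 and 4.70 in the same order and was called higher in U2-OS with OGE. The inflammasome adaptor PYCARD and the pore protein GSDMD lay above the median on all arrays.

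Among the receptors of the IL-6 family, all 7 lay at or above the median on every array. IL6R, the IL-6 binding chain, was at 4.48 in HOS control, 5.13 in HOS with OGE, 3.98 in U2-OS control and 5.06 in U2-OS with OGE. With OGE it differed by 0.65 in HOS, with no call, and was called higher by 1.08 in U2-OS, and its limma adjusted p was 0.245. LIFR and IL11RA differed by -0.63 and -0.62 in U2-OS, and IL6ST by 0.13 and -0.28 in HOS and U2-OS. The feedback inhibitor SOCS3 differed by 0.99 in HOS and 0.74 in U2-OS, with no call, and STAT3 differed by -0.39 and -0.63. IL27RA, the IL-27 receptor chain, was called 1.27 higher in U2-OS without OGE.

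Among the other chemokines, CXCL14 was called. This chemokine, which attracts monocyte-lineage cells, was at 4.24 in HOS control, 4.25 in HOS with OGE, 8.79 in U2-OS control and 6.35 in U2-OS with OGE. Its signal was higher in U2-OS, by 4.55 without OGE and 2.10 with it, and OGE minus control was 0.01 in HOS and -2.44 in U2-OS. Its limma adjusted p was 0.0759 between the lines and 0.447 for OGE, so that neither passed. CXCL16, a transmembrane chemokine, differed with OGE by 0.83 in HOS and 0.93 in U2-OS, with no call. CX3CL1 and CCL26 were called higher in U2-OS with OGE, by 1.18 and 1.02, and CXCL12 was called lower, with a difference of -1.0 that cyclic loess took below the threshold.

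The receptors for the 4 chemokines had low signals, with CXCR1 between 1.46 and 1.64, CXCR2 between 1.39 and 1.82 and CCR2 between 1.89 and 3.22, all below the median. CCR2 differed with OGE by 0.85 in HOS and 0.70 in U2-OS, with a limma adjusted p of 0.242. CXCR4, the CXCL12 receptor, was at 2.95 in HOS control, 4.44 in HOS with OGE, 2.39 in U2-OS control and 2.22 in U2-OS with OGE, a difference of 1.49 in HOS and -0.17 in U2-OS. IL24, an IL-10 family cytokine, was at 2.73, 2.99, 2.59 and 4.80 in the same order. It was called 2.21 higher with OGE in U2-OS and differed by 0.26 in HOS. Among the immune markers, CD68, a lysosomal protein, was 1.05 and 1.35 higher with OGE in HOS and U2-OS. It was the only 1 of the 9 called in either line, against 1.05% and 1.84% of all genes called higher. The differences of 7 of the 9 were positive in each line, and CD14 differed by -0.21 and -0.22. The summed log2 signal of the 9 markers, CD68 among them, was 24.72 and 25.95 in HOS and 23.27 and 26.15 in U2-OS, without and with OGE. Of the 8 osteoblast markers, 1 was called lower with OGE in HOS, COL1A2 (-1.25), against 1.34% of all genes. In U2-OS 2 were called lower, COL1A1 (-1.75) and SPARC (-1.4), against 4.92%. None of these markers was called higher with OGE. The part of the immune and osteoblast markers in the values of the cytokines was not tested.

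**Figure D5:**
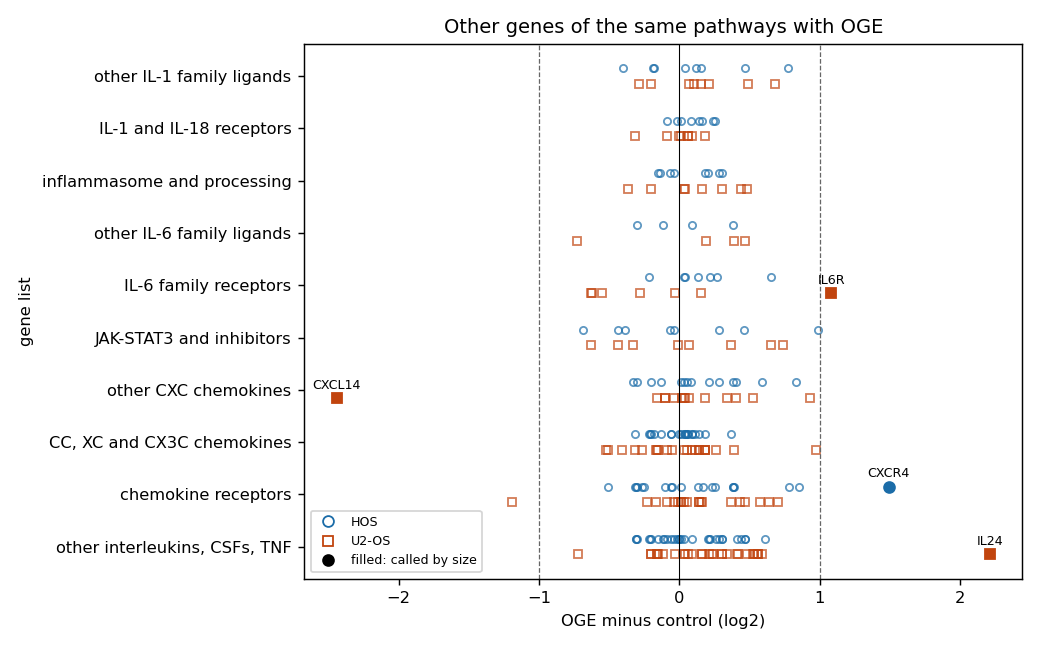
OGE minus control on the log2 scale for each measured gene of the 10 other lists, in HOS (blue circles) and U2-OS (orange-red squares), with filled symbols for genes called by size and dashed lines at the 2-fold threshold. Called were CXCR4 at 1.49 in HOS, and IL6R at 1.08, IL24 at 2.21 and CXCL14 at -2.44 in U2-OS.

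By the Euclidean distance between the 4 values, each taken relative to its gene's mean, the genes most like IL18 were the cancer-testis antigen gene MAGEB2 (distance 0.493), TSPYL5 (0.673), RFPL4A (0.758), MAGEA4 (0.819) and ANKRD1 (1.083). Each of these was higher in U2-OS in both states, MAGEB2 by 4.52 and 4.44. The genes most like IL11 were EXOSC5 (0.085), BOD1 (0.094), SPNS1 (0.103), MUL1 (0.11) and AK4 (0.116), with differences with OGE from 0.42 to 0.62 in HOS and from 0.81 to 0.99 in U2-OS. These likenesses rest on 4 arrays.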

How the data were processed

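The 4 arrays were read from 1 table of 33297 probe sets. The deposited values are log2 signals. The submitters' processing notes name RMA without a version. The log base was taken from their range, 0.16 to 13.41. The platform annotation, of 2016, gives 1 symbol for 19460 probe sets, and 19429 of these were matched to RefSeq by gene ID. Of the 18417 genes, 769 had more than 1 probe set and the one with the highest mean was used. No source used here names a genome build for them. limma 3.58.1 in R 4.3.3 was fitted to all genes with cell line and OGE as terms, leaving 1 residual degree of freedom, with Benjamini-Hochberg adjustment and a threshold of 0.05. It was also run on simulated data with additive changes and independent noise, with no response that differed between the lines. That run does not bear on how far the p-values hold here. Promoters were searched and aligned with Biopython 1.88.

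The 10 genes and all lists were chosen with earlier results of these data known. The rule for names took all 10 genes, of each list up to 4 genes called with OGE and up to 3 called between the lines in both states, and the 5 genes nearest in pattern to IL18 and IL11. Further genes, among them those called between the lines in 1 state, were named after their values had been seen. Alternatives were other size thresholds and floors, quantile normalization, cyclic loess, the mean of probe sets, and limma with trend and robust moderation, without the block, or on genes at or above the median mean level.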

Additional observations from a re-analysis of the deposited data

How the results depend on the processing

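No paired analysis by replicate number was possible because the labels give none; cell line served as the block, and without the other term as a block (no replicate block) 0 of the 10 genes passed limma for OGE and 2, IL18 and LIF, between the lines. Leaving out an array removes a comparison, so this was not run. At 1.5-fold, 0 of the 10 genes were called with OGE in HOS, 1 in U2-OS (IL11) and 5 between the lines with OGE, where CXCL1 and CXCL8 joined. At 3-fold or with a floor at the 75th percentile CCL2 lost its call without OGE, and with that floor also with OGE. Genes of the other lists called at 1.5-fold numbered 7 in HOS, 11 in U2-OS, 9 between the lines without OGE and 13 with it. At 3-fold these were 0, 2, 1 and 3, with the 75th percentile floor 0, 1, 1 and 1, and with no floor 1, 4, 4 and 8. These shifts follow from the threshold or floor itself. Cyclic loess and quantile normalization left every call of the 10 genes in place. Averaging of probe sets could not change these calls, since each of the 10 genes has 1 probe set. Under quantile normalization the U2-OS differences with OGE went from -0.09 to 0 for IL18 and from 0.11 to -0.02 for IL1A. Differences of 0 for CXCL8 in HOS and for IL1B between the lines with OGE became slightly negative, at most 0.04 in size. In limma, IL18 and LIF passed in all 6 alternatives, with adjusted p up to 0.011 and 0.0361. CCL2 passed in 4 of 5 and was not among the genes at or above the median mean level. IL11 passed in none, with adjusted p for OGE from 0.132 to 0.766. Over all genes, limma called 264 genes for OGE after quantile normalization, 1 with trend and robust moderation and 0 otherwise, and between the lines from 131 to 1763, against 354; the cause was not tested. Over all 18417 genes the size rule called 1939 and 48 genes in HOS and 3296 and 293 in U2-OS at 1.5-fold and 3-fold, against 440 and 1245. Between the lines it called 3662 and 543 genes without OGE and 3184 and 376 with it, against 1613 and 1279. Values under the floor limit what can be said of IL6, IL1A, IL1B, CXCL2 and CXCL8, and of IL18, LIF and CCL2 in HOS.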

Other observations

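The genes beside IL18, LIF and CCL2 on their chromosomes were read for their own differences between the lines, by RefSeq order of protein-coding genes and after the values of the cytokines had been seen. Next to IL18 on chromosome 11 lie SDHD, a subunit of respiratory complex II, and TEX12. SDHD differed between U2-OS and HOS by 0.04 without OGE and 0.79 with it, and TEX12 by -0.09 and 0.19, against 4.91 and 4.84 for IL18. Next to LIF on chromosome 22 lie HORMAD2, which differed by -0.23 and 0.16, and OSM, a related gp130 cytokine, which differed by -0.50 and 0.27, against 2.36 and 1.96 for LIF. Next to CCL2 on chromosome 17 lie ASIC2, which differed by -0.52 and -0.18, and CCL7, a monocyte attractant of the same family, which differed by 0.01 and 0.16, against 1.58 and 2.21 for CCL2. Within 8 genes on either side, those with a difference of at least 1 on the log2 scale in the same direction in both states were counted, without a floor. With the floor, 3.71% of all genes met this rule, and the share without it was not counted. There were 0 of 14 measured genes around IL18. Around LIF there were 3 of 15, with NF2 at 2.31 and 1.34, MTMR3 at 1.24 and 1.25, and ASCC2 at -1.91 and -1.33. Around CCL2 there were 2 of 13, TMEM98 at 1.74 and 1.18 and MYO1D at 1.5 and 1.51, both higher in U2-OS as CCL2 was. MYO1D lay under the median on all 4 arrays, at 1.44 and 1.14 in HOS and 2.94 and 2.65 in U2-OS, without and with OGE. With the floor it would not have been counted.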
